A study of Mus musculus with 41 samples.

Results

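Cytosine modification at the mouse *Il4* locus was examined by TET-assisted pyridine borane sequencing (TAPS) in naïve CD4+ T cells and in Th2 cells. The samples were those that the labels call TAPS, 2 of the 41 samples of the series, with 1 library of naïve cells and 1 library of Th2 cells. All CpGs lying between the primers of 8 *Il4* amplicons in chr11:53427375-53440800 (mm9) were read, each strand separately, with at least 100 reads required. The amplicons held 47 CpGs, and all 94 CpG strands passed in both libraries. CpG numbers run with transcription, from 1 in the upstream enhancer *CNS1* to 47 at exon 3.

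The series followed DNA modification by amplicon sequencing in T cells and macrophages, with bisulfite sequencing (BS-seq) for most samples and pyridine borane sequencing without oxidation (PB-seq) for some. By their labels, all cells described here came from wild-type C57BL/6 mice, and the methods give an age of 8 to 16 weeks. Naïve cells were CD4+CD25-CD62L hiCD44 lo cells sorted by FACS from spleen and lymph nodes. Th2 cells were grown from such cells for 2 days on plate-bound anti-CD3 and anti-CD28 (1 μg/ml) with IL-4 (1000 U/ml) and anti-IFN-γ (1 μg/ml), and then in IL-2 (20 U/ml) for 3 days by the labels and 4 days by the methods. The BS-seq libraries set beside them, 3 of naïve and 3 of Th2 cells, and the 3 PB-seq samples of wild-type Th2 cells carried the same strain, genotype and culture labels. By their titles, however, the PB-seq samples were controls for *Tdg* deletion, 2 of them named TdgWT and 1 named TdgWT with CD4cre. The methods state that control mice were injected with tamoxifen where deletion was induced through *CreERT2*, whereas the treatment label of these samples is none, and which of them came from injected mice is not given. The same holds for 5 further BS-seq samples of first-cycle Th2 cells, 3 named TdgWT, 1 TetTWT and 1 TetWT by their titles, which enter only where all 8 wild-type samples are named. Replicates 2 and 3 of TdgWT BS-seq were taken as runs of 1 library, so that the 8 samples stand for 7 libraries. The labels do not say whether the TAPS libraries and the BS-seq libraries came from the same animals or cultures. How the TAPS samples were made is not described in the paper, and their label for DNA treatment is the text shared with BS-seq and PB-seq, so that the oxidation step is known here from the name of the method alone.

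*Il4* encodes interleukin-4, the signature cytokine of Th2 cells. The gene is silent in naïve T cells and is opened during Th2 differentiation, when enhancers such as *CNS1*, upstream of the gene, and HSII, in its intron 2, lose 5-methylcytosine (5mC). The same CpG is written on both strands, so that each strand carries a cytosine of its own that can be modified, and after replication the maintenance methyltransferase DNMT1 copies 5mC from the old strand to the new. In TAPS a TET enzyme oxidises 5mC and 5-hydroxymethylcytosine (5hmC), pyridine borane reduces the product to dihydrouracil, and the base is then read as T. The TAPS level used here was therefore the percentage of T among reads with C or T, and a high level stands for a modified cytosine. Both strands could be read, whereas the BS-seq amplicons covered the minus strand, which is the coding strand of *Il4*.

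The deposited read counts were deep at nearly all CpGs. The median number of reads per CpG in the naïve library was 7144 on the minus strand and 6107 on the plus strand. In the Th2 library the medians were 8511 and 9713. CpGs 22 and 23, in the 5′ untranslated part of exon 1, had the fewest reads, between 134 and 280 on either strand of either library. Levels are given with 95% Wilson intervals where a single CpG is described, and these cover counting error only, since PCR copies of a molecule could not be recognised. With 1 library per cell type, no difference reported here has a replicate check.

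The background of unmodified cytosines read as T, pooled over cytosines, was low in both libraries. It does not cover modified cytosines left unconverted, which would lower a TAPS level and whose share was not measured here. At cytosines outside CpGs in the same amplicons, T made up 0.233% of reads on the minus strand and 0.314% on the plus strand of the naïve library (403 and 412 cytosines). The corresponding shares in the Th2 library were 0.182% and 0.211%. PB-seq of wild-type Th2 cells, which uses the same reduction without oxidation, had median T shares over the 47 CpGs of 0.237% and 0.202% (minus and plus strand), 0.155% and 0.117%, and 0.0762% and 0.0824% in its 3 samples, of which the first 2 carry the name of a single library. The highest T share at any CpG in these samples was 3.69%, on the plus strand of CpG 32, and the highest outside CpGs was 7.76%, also on the plus strand. The lowest TAPS level at any CpG strand was 11.3%, at promoter CpG 21 on the plus strand in Th2 cells. In TAPS, single cytosines outside CpGs reached 14.9% in the naïve library and 9.76% in the Th2 library, both on the plus strand, and the plus strand of CpG 21 in naïve cells, at 12.8%, was below the highest of these.

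In naïve cells, most CpGs outside the promoter were heavily modified on both strands. *CNS1* (chr11:53440233-53440800, 17 CpGs) had a mean level of 92.8% on the minus strand and 86.1% on the plus strand, with medians of 93.7% and 90.6%. Exon 1 (chr11:53431960-53432290, 7 CpGs) had means of 96.9% and 97.3%. The amplicon of intron 1 and exon 2 (chr11:53431630-53431948, 9 CpGs) had means of 93.9% and 96%. The means of exon 1 and of intron 1 and exon 2 were thus above 90% on either strand, and that of *CNS1* on the minus strand alone. On the plus strand of *CNS1* the SD over CpGs was 17.8 points, and 8 of 17 CpGs were under 90%. The 3′ region of HSII (chr11:53430150-53430347, 5 CpGs) had means of 92.1% and 90.8%, and exon 3 (chr11:53427375-53427536, 5 CpGs) had means of 92.2% and 99%. The promoter amplicon (chr11:53432389-53432583, 4 CpGs) stood apart at 36.6% on the minus strand and 29.8% on the plus strand.

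In Th2 cells most of these regions were lower. *CNS1* was at 52.4% on the minus strand and 54.2% on the plus strand, exon 1 at 62.3% and 67.1%, intron 1 and exon 2 at 61.5% and 66.2%, and the 3′ region of HSII at 59.9% on both strands. These 4 regions were at intermediate levels on either strand. The promoter was at 21.1% on the minus strand and 24.4% on the plus strand, and remained the least modified region. Exon 3 was at 94.5% and 97.8%, and was the only region near full modification on both strands in the Th2 library.

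**Figure D1:**
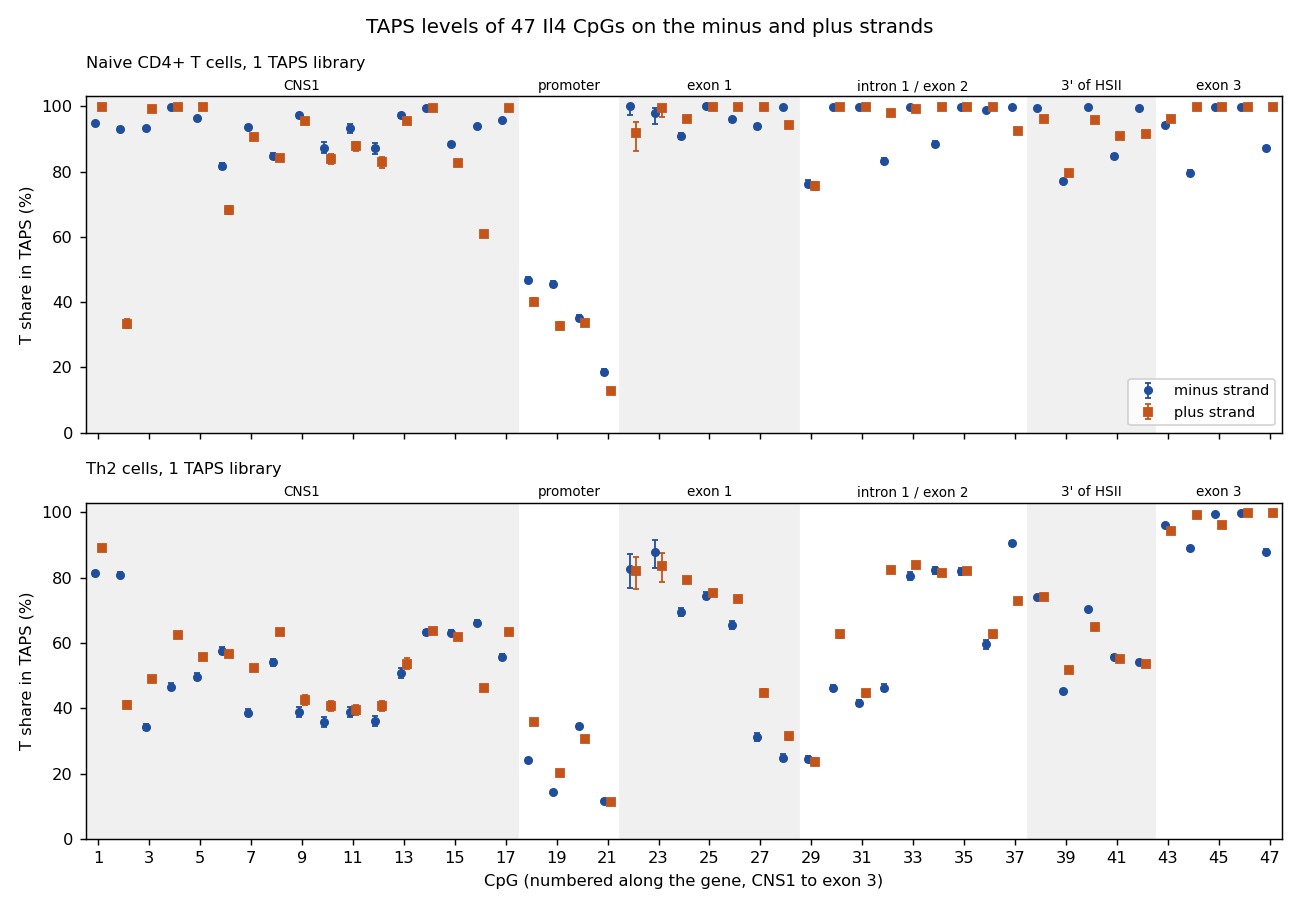
TAPS level (percentage of T among reads with C or T) of each of 47 *Il4* CpGs on the minus strand (circles) and plus strand (squares) in the naïve library (upper panel) and the Th2 library (lower panel); bars are 95% Wilson intervals and shading marks alternate regions. Most CpGs outside the promoter lie above 80% in the naïve library on both strands, CpG 2 on the plus strand is at 33.4%, and in the Th2 library exon 3 alone keeps all of its CpG strands above 85%.

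To ask which cytosines differed between the libraries, the T and C reads of each CpG strand were compared by Fisher's exact test (two-sided), with Benjamini-Hochberg adjustment over the 94 CpG strands, and a CpG strand was called at an adjusted p under 0.05 and a difference of at least 10 points. The level was lower in Th2 cells at 75 of 94 CpG strands (79.8%) and higher at 0 (0%). On the minus strand 38 of 47 CpGs were lower (80.9%), and on the plus strand 37 of 47 (78.7%). The largest adjusted p among the calls was 0.000186, at CpG 23 on the minus strand. The test compares the reads of these 2 libraries and not the cell types. Averaged over the 47 CpGs, the Th2 minus naïve difference was -30.5 points on the minus strand and -25.6 points on the plus strand. With C reads multiplied by 0.5, a correction that the methods state for PB-seq, 12 of the 75 calls were lost and the minus strand of CpG 21 was called (-10.5 points), which gave 64. The calls lost were those on the minus strand at CpGs 1, 2, 22, 23 and 35 and on the plus strand at CpGs 1, 6, 23, 24, 32, 33 and 35. Whether this correction applies to TAPS was not tested.

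The calls of the strands coincided at most CpGs. Both strands were called lower at 35 CpGs, the minus strand alone at 3 (CpGs 2, 18 and 22) and the plus strand alone at 2 (CpGs 34 and 37). Neither strand was called at 7 CpGs, which were promoter CpGs 20 and 21 and the 5 CpGs of exon 3. Across the 47 CpGs, the Th2 minus naïve difference on the minus strand followed that on the plus strand, with Pearson's r of 0.923 and Spearman's rho of 0.916. This is a description over CpGs that share libraries and, within an amplicon, reads. If reads without conversion were counted for either strand, the strands also share C reads, which was not tested for TAPS. The levels themselves were related with r of 0.840 and rho of 0.597 in naïve cells, where most CpGs were near full modification, and with r of 0.890 and rho of 0.874 in Th2 cells.

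**Figure D2:**
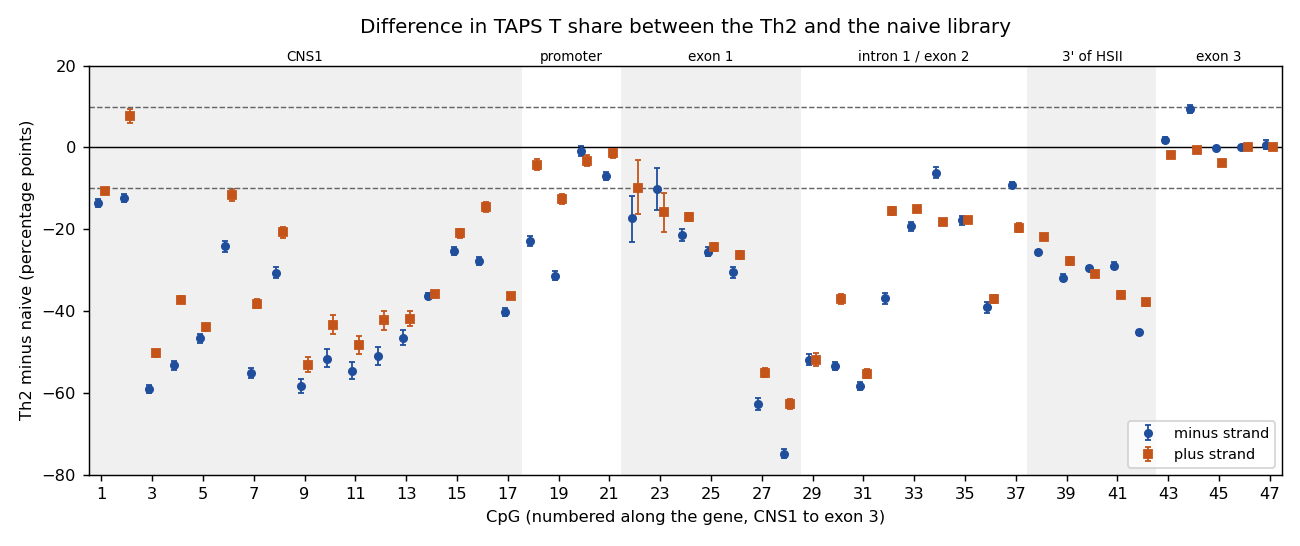
Difference in TAPS level between the Th2 and the naïve library, in percentage points, at each of 47 CpGs on the minus strand (circles) and plus strand (squares); bars are 95% Newcombe intervals, which cover counting error only, and dashed lines mark the 10 points required for a call. The lowest points are those of CpG 28, at -74.9 and -62.8 points. Exon 3 lies around 0, apart from the minus strand of CpG 44 at 9.41 points.

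The largest difference on either strand lay close to the 3′ end of exon 1. CpG 28, in the coding part of exon 1, went from 99.7% (95% interval 99.5 to 99.8) to 24.8% (23.8 to 25.9) on the minus strand, a fall by 74.9 points that was the largest of all 94 CpG strands. On the plus strand CpG 28 went from 94.2% (93.5 to 94.8) to 31.4% (30.4 to 32.4), also the largest of its strand. CpG 27, in exon 1, went from 93.9% to 31.2% on the minus strand and from 99.7% to 44.7% on the plus strand. With C reads as deposited, these neighbours thus lost most of their modification on both strands. Multiplied by 0.5, C reads gave smaller falls. On the minus and plus strand these were -49.3 and -38.1 points at CpG 27, and -60.1 and -49.2 points at CpG 28. CpG 29, in intron 1, went from 76.3% (75.2 to 77.4) to 24.4% (23.5 to 25.2) on the minus strand and from 75.5% (74.2 to 76.7) to 23.7% (22.7 to 24.6) on the plus strand. It was the least modified CpG of its amplicon in both libraries, and its change differed between strands by -0.0691 points (-2.16 to 2.02). The mean of CpGs 27 to 29 was 90% and 89.8% in naïve cells and 26.8% and 33.3% in Th2 cells, on the minus and plus strand. The stretch that holds them is shown because the largest change of each strand lies in it, on the minus strand of mm9, with the CpGs in capitals.

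CpGs 27 to 29, chr11:53431915-53432015, minus strand: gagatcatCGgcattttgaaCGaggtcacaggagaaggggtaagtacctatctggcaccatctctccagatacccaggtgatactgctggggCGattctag

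The differences were smaller towards the 5′ end of exon 1. There the minus strand differed by -30.5 points at CpG 26, -25.5 at CpG 25 and -21.5 at CpG 24, and the plus strand by -26.3, -24.3 and -17 points. In intron 1, CpG 31 differed by -58.3 points on the minus strand and -55.3 on the plus strand, and was at 41.5% and 44.6% in Th2 cells. With C reads as deposited, it thus differed more than CpG 29. Multiplied by 0.5, C reads turned this order, with -41.2 and -38.3 points at CpG 31 and -47.3 and -47.8 at CpG 29. CpGs 33 to 37, at the end of intron 1 and in exon 2, averaged 97.3% and 98.1% in naïve cells and 79.0% and 76.6% in Th2 cells. On average these 5 CpGs therefore differed less than CpGs 27 to 29 on either strand, though not evenly. CpG 36 differed by -39.1 points on the minus strand and -37.1 on the plus strand, to 59.7% and 62.6% in Th2 cells. The others differed by between -19.3 and -6.12 points on the minus strand, and between -19.7 and -15.1 on the plus strand. CpG 22 was at 100% (97.2 to 100) and 82.7% (76.9 to 87.3) on the minus strand, and at 91.8% (86.4 to 95.1) and 81.9% (76.6 to 86.2) on the plus strand, and the difference of its changes, -7.45 points (-15.8 to 0.862), was not resolved at this depth.

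*CNS1* also lost modification on both strands, unevenly along its length. All 17 of its CpGs were called lower on the minus strand and 16 on the plus strand. CpGs 1 and 2, at the 5′ edge, averaged 94% in naïve and 81.1% in Th2 cells on the minus strand, and 66.5% and 65.0% on the plus strand. CpGs 3 to 8 averaged 91.6% and 46.8% on the minus strand, and 90.3% and 56.6% on the plus strand. CpGs 9 to 13 averaged 92.5% and 40.1% on the minus strand, and 89.1% and 43.3% on the plus strand, and CpGs 14 to 17 averaged 94.5% and 62.1%, and 85.6% and 58.8%. The middle of *CNS1* was thus the part with the lowest levels in Th2 cells on both strands.

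Within CpGs 3 to 8 the levels differed widely between neighbours. CpG 3 had the largest difference of *CNS1* on the minus strand, -59.1 points (93.2% to 34.2%), and differed by -50.3 on the plus strand (99.2% to 48.9%). CpG 9 had the largest on the plus strand, -53.1 points (95.6% to 42.5%). CpG 4 was at 99.8% on both strands in naïve cells, and at 46.5% on the minus and 62.5% on the plus strand in Th2 cells. CpG 5 went from 96.3% to 49.6% and from 99.7% to 55.8%. At CpGs 3 to 5 the level in Th2 cells was thus higher on the plus strand. CpG 6, only 8 bases from CpG 5, began lower, at 81.7% on the minus strand and 68.2% on the plus strand, and was at 57.5% and 56.6% in Th2 cells. CpG 7 went from 93.7% to 38.6% on the minus strand and from 90.6% to 52.4% on the plus strand, and CpG 8 from 84.7% to 54.1% and from 84.2% to 63.4%. The plus strand of CpG 6 therefore fell by 11.7 points, the smallest called fall of CpGs 3 to 8, and in Th2 cells its strands differed by 0.963 points (-0.422 to 2.34). The stretch of CpGs 1 to 8 is shown because it holds the largest and the smallest change of *CNS1* on the minus strand, at CpGs 3 and 2, with the CpGs in capitals.

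CpGs 1 to 8, chr11:53440567-53440776, minus strand: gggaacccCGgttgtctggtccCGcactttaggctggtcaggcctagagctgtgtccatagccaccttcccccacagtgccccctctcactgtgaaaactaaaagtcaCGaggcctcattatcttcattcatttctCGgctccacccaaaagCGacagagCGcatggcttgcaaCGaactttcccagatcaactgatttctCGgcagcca

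The promoter was the region of lowest modification, and its CpGs did not move together. CpG 18 was at 46.8% in naïve and 24% in Th2 cells on the minus strand, and at 40.1% and 35.8% on the plus strand. CpG 19 was at 45.6% and 14.3% on the minus strand, and at 32.8% and 20.2% on the plus strand, and was the only promoter CpG called lower on both strands. CpG 20 was at 35.2% and 34.5% on the minus strand, a difference of -0.769 points (-2.01 to 0.467), and at 33.6% and 30.4% on the plus strand. CpG 21, the lowest of all 47 CpGs in both libraries, was at 18.7% and 11.7% on the minus strand and at 12.8% and 11.3% on the plus strand. The change on the minus strand minus that on the plus strand was -18.5 points (-20.3 to -16.7) at CpG 18 and -18.6 points (-20.3 to -17) at CpG 19. With C reads multiplied by 0.5 the Th2 means of the promoter were 34.0% and 38.3% on the minus and plus strand. The amplicon is printed because it is the only one with low levels in naïve cells, with CpGs 18 to 21 in capitals. It lies upstream of the annotated start of *Il4* transcription (chr11:53425962-53432171, minus strand).

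Promoter, chr11:53432389-53432583, minus strand: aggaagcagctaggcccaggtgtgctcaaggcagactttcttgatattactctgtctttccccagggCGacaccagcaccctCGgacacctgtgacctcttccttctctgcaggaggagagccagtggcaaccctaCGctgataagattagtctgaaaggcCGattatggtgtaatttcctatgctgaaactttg

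The 3′ region of HSII, in intron 2, was called lower at all 5 CpGs on both strands. CpG 42 had the largest difference there, -45.2 points on the minus strand (99.3% to 54.1%) and -37.8 on the plus strand (91.4% to 53.6%). CpG 39 was the least modified, at 77.2% on the minus and 79.5% on the plus strand in naïve cells and at 45.4% and 51.7% in Th2 cells. CpG 38 was the most modified in Th2 cells, at 73.9% on the minus and 74.2% on the plus strand, from 99.6% and 96.1%. The lowest CpG of the region was thus the same in both libraries on both strands. CpG 40 went from 99.6% to 70.2% on the minus strand and from 95.9% to 64.9% on the plus strand, and CpG 41 from 84.6% to 55.7% and from 91.0% to 55.0%. The mean difference between the strands in this region was -0.0298 points in Th2 cells and 1.29 points in naïve cells, and no CpG of it was called between strands in either library.

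Exon 3 was called at none of its CpGs on either strand. CpG 45 was at 99.8% in naïve and 99.6% in Th2 cells on the minus strand, and at 99.8% and 96% on the plus strand. CpG 46 was at 99.8% and 99.9% on the minus strand and at 99.8% in both libraries on the plus strand. CpG 43 was at 94.3% and 96.1% on the minus strand and at 96.1% and 94.2% on the plus strand. These 3 CpGs were thus above 94% on each strand of each library. CpG 44 was at 79.6% (78.7 to 80.4) in naïve cells and 89% (88.3 to 89.6) in Th2 cells on the minus strand, and at 99.7% and 99% on the plus strand. Its difference of 9.41 points on the minus strand (8.32 to 10.5) was the largest increase of all 94 CpG strands with C reads as deposited. It did not reach 10 points. With C reads multiplied by 0.5 it was 5.54 points, and the largest increase was then 8.23 points, on the plus strand of CpG 2. CpG 47, which lies just inside intron 3, was at 87.3% and 88.0% on the minus strand and at 99.7% in both libraries on the plus strand.

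The strands of each CpG were then compared within a library by Fisher's exact test (two-sided), adjusted over the 47 CpGs, with the same minimum of 10 points. In naïve cells 8 of 47 CpGs were called (17%), 4 with the minus strand higher (8.51%) and 4 with the plus strand higher (8.51%). In Th2 cells 12 of 47 were called (25.5%), 3 with the minus strand higher (6.38%) and 9 with the plus strand higher (19.1%). The strands were close at most CpGs, with a median absolute difference of 3.74 points in naïve cells and 4.41 points in Th2 cells. Whether the libraries differed in the number of such CpGs was not tested. Of the CpGs called, 5 had the same call in both libraries (CpGs 2, 16, 32, 44 and 47), and 0 had opposite calls. With C reads multiplied by 0.5, only CpGs 2 and 16 had the same call in both libraries. At CpGs 32, 34, 44 and 47, where the plus strand was higher in naïve cells, minus-strand TAPS lay below every naïve BS-seq library. With C reads as deposited, TAPS and mean BS-seq levels there were 83.3% and 95.1%, 88.4% and 95.5%, 79.6% and 96.8%, and 87.3% and 94.7%. BS-seq did not read the plus strand, and what sets these gaps was not tested.

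CpG 2 of *CNS1* had the largest difference between strands. In naïve cells it was at 93.2% (92.7 to 93.7) on the minus strand and at 33.4% (32 to 34.8) on the plus strand, a difference of 59.8 points (58.3 to 61.3). In Th2 cells it was at 80.9% (80.1 to 81.7) and 41.1% (40.2 to 42.1), a difference of 39.8 points. The plus strand of CpG 2 was therefore the only CpG strand outside the promoter under 60% in the naïve library. The minus strand fell by 12.3 points, while the plus strand differed by 7.75 points (6.02 to 9.46) in the other direction, short of a call. CpG 1, 14 bases away and covered by nearly the same reads, was at 94.8% on the minus and 99.7% on the plus strand in naïve cells and at 81.3% and 89% in Th2 cells.

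CpG 16, also in *CNS1*, shared this direction. It was at 93.9% on the minus strand and 60.8% on the plus strand in naïve cells, a difference of 33.1 points (32.1 to 34.1). In Th2 cells it was at 66.2% and 46.3%, a difference of 19.8 points (18.7 to 21). CpG 15, 9 bases away on the same reads, was at 88.6% and 82.7% in naïve cells and at 63.2% and 61.7% in Th2 cells, so that the gap at CpG 16 was not shared by its neighbour. The largest gap in the other direction in Th2 cells was at CpG 32, in intron 1. It was at 83.3% on the minus strand and 97.9% on the plus strand in naïve cells, and at 46.3% and 82.3% in Th2 cells, where the strands differed by -36.0 points (-37.3 to -34.6). Its change on the minus strand minus that on the plus strand was -21.3 points (-23 to -19.6). In naïve cells the largest gap in that direction was at CpG 44 in exon 3, at -20.1 points (-21 to -19.3), and in Th2 cells it was -10.1 points (-10.8 to -9.38).

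The bases around these CpGs are given for both strands, each read 5′ to 3′, because the strands of a CpG can differ in the bases that flank it. Capitals mark the CpG.

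CpG 2, chr11:53440743-53440764, minus strand: tgtctggtccCGcactttaggc
CpG 2, plus strand: gcctaaagtgCGggaccagaca
CpG 16, chr11:53440328-53440349, minus strand: tcgtcatctcCGctctgagcat
CpG 16, plus strand: atgctcagagCGgagatgacga
CpG 32, chr11:53431789-53431810, minus strand: gggagtctccCGggtggggggt
CpG 32, plus strand: accccccaccCGggagactccc
CpG 44, chr11:53427421-53427442, minus strand: gagactctttCGggcttttcga
CpG 44, plus strand: tcgaaaagccCGaaagagtctc

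The flanking bases were therefore set beside the naïve level at the 86 CpG strands outside the promoter, a grouping chosen after the values of CpGs 2 and 16 were seen. Of these, 35 were at 99% or more, 29 between 90% and 99% and 22 under 90%. With C before the CpG, 14 of 23 CpG strands (60.9%) were at 99% or more. With A the count was 8 of 21 (38.1%), with T 10 of 28 (35.7%) and with G 3 of 14 (21.4%). By the base after the CpG the shares were closer together. They were 11 of 21 with T (52.4%), 6 of 14 with C (42.9%), 9 of 23 with G (39.1%) and 9 of 28 with A (32.1%). The plus strands of CpGs 2, 6 and 16, the 3 CpG strands under 70%, carry G, G and G before the CpG and are included in these counts. The strands of CpG 6 both carry G before and C after, and those of CpG 32 both carry C before and G after. In naïve cells the strands of each were called different with C reads as deposited. Neighbouring CpGs share reads and the groups are small, so these counts describe the locus, and the part of sequence in the level was not tested.

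Other strand calls were limited to 1 library. In naïve cells the minus strand was also higher at CpG 6, by 13.5 points, and at promoter CpG 19, by 12.7 points, and the plus strand was higher at CpG 34 of exon 2 (88.4% on the minus and 99.8% on the plus strand). In Th2 cells the plus strand was also higher at CpGs 3, 4 and 7 of *CNS1*, CpG 18 of the promoter, CpG 27 of exon 1 and CpG 30 of intron 1, with differences between -16.5 points at CpG 30 and -11.8 points at CpG 18. CpG 37, at the end of exon 2, was the only further CpG with a higher minus strand in Th2 cells, at 90.6% against 72.8%, from 99.7% and 92.5% in naïve cells. The change on the minus strand minus that on the plus strand was 12.1 points (10.5 to 13.7) at CpG 34 and 10.5 points (9.16 to 11.9) at CpG 37.

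Strand counts depended on how C reads were weighted and on the minimum difference. With C reads multiplied by 0.5, 4 CpGs were called between strands in naïve cells. CpGs 6, 32, 34 and 47 then lost the call in naïve cells, at 8.83, -8.09, -6.03 and -6.62 points, and CpGs 44 and 47 in Th2 cells, at -5.35 and -6.22 points. With a minimum of 20 points, 3 CpGs were called in naïve and 2 in Th2 cells.

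TAPS on the minus strand was set beside BS-seq of the same cell types by label, in which C stands for 5mC and 5hmC. The methods differ for 5-formylcytosine and 5-carboxylcytosine, which BS-seq reads as T, that is as unmodified, and which pyridine borane converts, so that TAPS counts them as modified. CpG 23 had under 100 reads in every naïve BS-seq library and was left out, a rule set after the depths were seen, which left 46 CpGs. In naïve cells the mean TAPS level was 88.5%, against 89.3% ± 0.301 (SD, n = 2) in the BS-seq libraries that covered all 46 CpGs. Replicate 2 of naïve BS-seq did not reach 100 reads in exon 1 and was used for the other regions. In Th2 cells the mean TAPS level was 57.6%, against 76.4% ± 6.13 (SD, n = 3) by BS-seq, where the libraries ran from 71.1% to 83.1%. With C reads as deposited, the naïve TAPS library was thus close to BS-seq on average. The Th2 TAPS library was lower by 18.8 points (-18.8, TAPS minus BS-seq), below each of the 3 Th2 libraries. With C reads multiplied by 0.5, the Th2 TAPS level was 70.2%. The 8 wild-type BS-seq samples of first-cycle Th2 cells had a mean of 71.2%, from 63.2% to 83.1%. These alternatives were varied 1 at a time and not together. An exact permutation test of 1 library against 3 cannot give a one-sided p below 0.25, so no test was made.

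By region and with C reads as deposited, the Th2 TAPS level lay below the BS-seq mean in all 6 regions, most of all in *CNS1* at -26.6 points (52.4% against 79.0% ± 6.61, SD, n = 3). The difference was -20.4 points in intron 1 and exon 2, -17 in the promoter, -14.4 in exon 1 (6 CpGs, without CpG 23) and -13.2 in the HSII region, where it was -8.50 without replicate 3 of Th2 BS-seq. Exon 3 differed least, by -1.45 points (94.5% against 96% ± 0.279, SD, n = 3). This order rested in part on the weighting of C reads. Multiplied by 0.5 in TAPS, they gave Th2 differences of -11.3 points in *CNS1*, -8.16 in intron 1 and exon 2, -4.17 in the promoter and -1.72 in exon 1, whereas the HSII region (1.27 points) and exon 3 (1.14 points) were then above BS-seq. With all 8 wild-type BS-seq samples of first-cycle Th2 cells, 5 of them controls of deletion mice, and C reads as deposited, that of *CNS1* was -17.5 points and that of intron 1 and exon 2 -17.0 points, so that *CNS1* hardly stood apart. In naïve cells the region differences ran from -13.0 points in the promoter (36.6% against 49.6% ± 2.20, SD, n = 3) to 3.66 points in exon 1, and that of *CNS1* was 0.128 points. With C reads multiplied by 0.5, the naïve promoter difference changed sign, to 2.91 points, and that of *CNS1* was 3.51 points. Without replicate 1 of naïve BS-seq, and with C reads as deposited, that of *CNS1* changed sign, to -0.188 points.

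**Figure D3:**
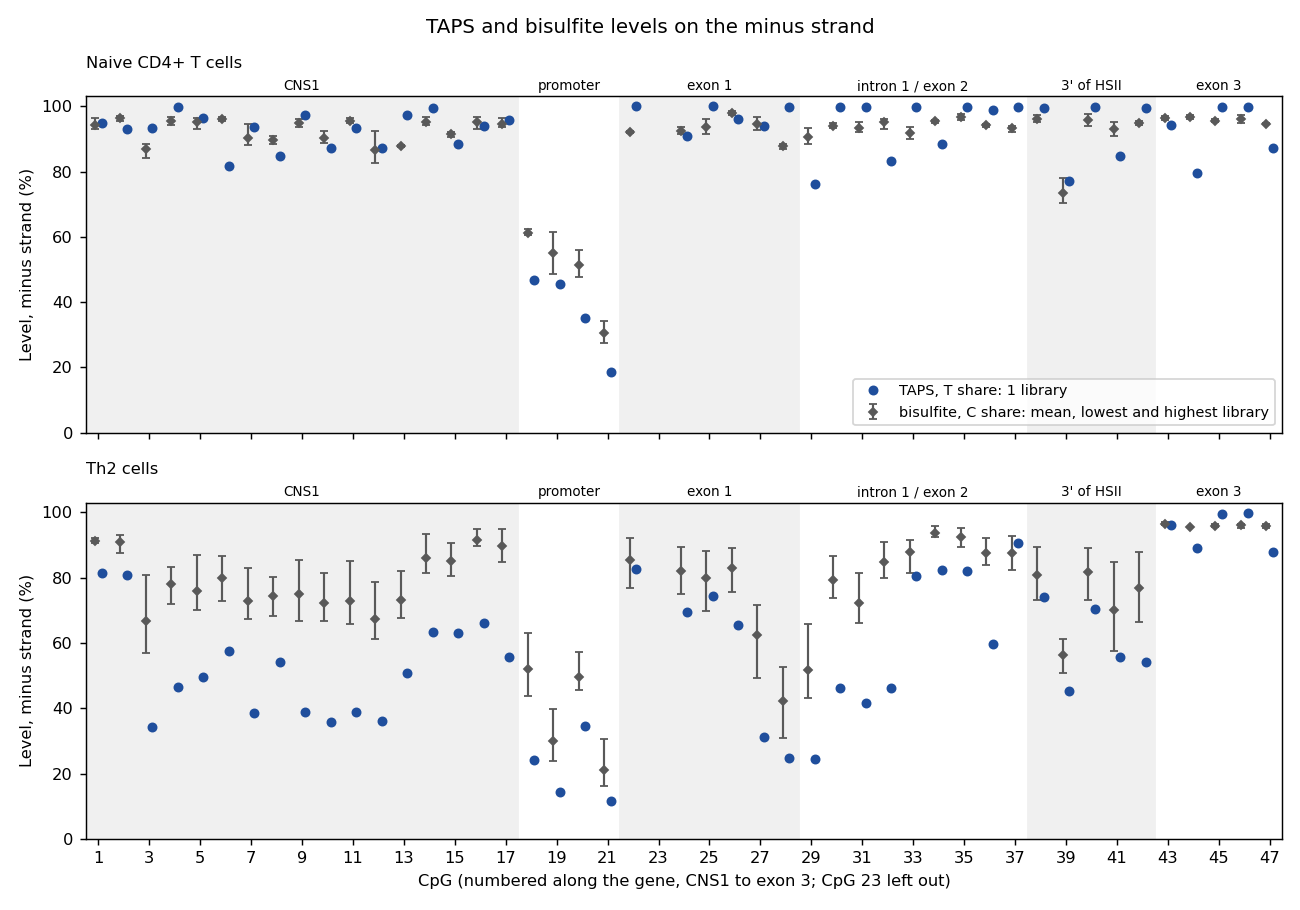
Level on the minus strand at 46 CpGs by TAPS (T share of 1 library, circles) and BS-seq (C share, diamonds at the mean with bars from the lowest to the highest library, 3 libraries or, for exon 1 in naïve cells, 2) in naïve cells (upper panel) and Th2 cells (lower panel). With C reads as deposited, TAPS lies above the BS-seq libraries at 19 CpGs and below them at 19 in naïve cells, and below them at 39 of 46 in Th2 cells; with C reads multiplied by 0.5, which is not drawn, these numbers are 35, 6 and 24.

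At single CpGs the naïve TAPS level lay above all BS-seq libraries at 19 of 46 CpGs, within their range at 8 and below it at 19. In Th2 cells it lay above at 2, within at 5 and below at 39. These counts depended on the weighting of C reads. Multiplied by 0.5, they put TAPS above at 35 and below at 6 CpGs in naïve cells, and above at 5 and below at 24 in Th2 cells. The set of BS-seq libraries also mattered. Without replicate 3 of naïve BS-seq, TAPS was above at 23, within at 2 and below at 21 CpGs in naïve cells. Without replicate 1 of Th2 BS-seq it was within at 2 and below at 42. With all 8 wild-type samples it was within at 13 and below at 31. Some CpGs differed widely between the methods in naïve cells. CpG 44 was at 79.6% by TAPS and between 96.1% and 97.2% by BS-seq. CpG 28 was at 99.7% by TAPS and at 87% and 88.5% in the 2 naïve BS-seq libraries with enough reads. CpG 2, at 93.2% on the minus strand by TAPS, was between 95.4% and 97% by BS-seq, which did not read its plus strand. CpG 39, the lowest of the 3′ region of HSII by TAPS, was also the lowest there by BS-seq, at 73.5% ± 3.97 (SD, n = 3) in naïve and 56.2% ± 5.33 (SD, n = 3) in Th2 cells.

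Across the 46 CpGs, the TAPS level on the minus strand and the mean BS-seq level had r of 0.924 and rho of 0.358 in naïve cells, and r of 0.867 and rho of 0.920 in Th2 cells. In naïve cells the promoter CpGs lay below all others by both methods, and most others were near full modification. The value of r without the promoter was not computed. The Th2 minus naïve differences of the methods had r of 0.809 and rho of 0.838, and the CpGs share libraries and reads within each method. With C reads multiplied by 0.5 in TAPS, the mean difference from BS-seq became 3.33 points in naïve and -6.12 points in Th2 cells. With each chemistry run on libraries of its own, chemistry and library cannot be told apart.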

How the data were processed

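TAPS, BS-seq and PB-seq amplicons of the *Il4* locus were used, 16 samples in all, grouped by their labels. The authors mapped reads to mm9 with BSMAP (version not given in the sources used here), with -w 2 -q 30 and, for PB-seq, -v 0 (-v 5 for BS-seq), and deposited counts of C and of C plus T at every cytosine. The mapping of TAPS is not described apart. Reads without conversion can be counted for either strand, for which the authors multiplied C by 0.5 in PB-seq, and whether this applies to TAPS was not tested; counts were used as deposited. Reads carried no molecular identifiers.

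Primers were matched to the mm9 genome, and exons are those of GENCODE. TAPS levels, Fisher's exact tests (two-sided, Benjamini-Hochberg adjustment, 100 reads, 10 points), Wilson and Newcombe 95% intervals and region means over CpGs were computed with Python 3.11.15, scipy 1.17.1, numpy 2.4.6, matplotlib 3.10.9 and pandas 2.3.3. The Fisher procedure was tested on simulated independent reads. These hold no PCR copies and no variation between libraries of a cell type, so the test does not bear on either. CpGs were named if highest or lowest in their region, if they had the largest change or strand difference or if in exon 3. CpGs 3 to 8, 27 to 29 and 38 to 42, which the paper names among others, were also named. Others serve as neighbours or complete small counts and were chosen after their values were seen. The samples, lists and rules were chosen with earlier results of these data known. The alternatives were other minimum reads and differences, read-weighted means, subtraction of background, C reads multiplied by 0.5, and other sets of BS-seq libraries.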

Additional observations from a re-analysis of the deposited data

Results flagged for a closer look

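At CpG 2 of *CNS1* the strands moved in opposite directions between the libraries. The TAPS level in Th2 cells differed from that in naïve cells by -12.3 points on the minus strand and by 7.75 points on the plus strand. The difference between the strands was not tested over replicates, since there was 1 library of each cell type.

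Some cytosines outside CpGs, which enter above as pooled shares and by the highest value of each library, had T shares of 5% or more in TAPS, with Wilson intervals above the T share of every PB-seq sample of wild-type Th2 cells. Of 815 such cytosines, 14 reached 5% in the naïve library, 4 in the Th2 library and 2 in both, and 17 of these values lay above PB-seq. The remaining value, 5.84% at 53431798 on the plus strand of the naïve library, was set aside because a PB-seq sample had 5.81% there, and the requirement on the interval was added after this was seen. The highest was 14.9% on the plus strand at chr11:53431885 in the naïve library. In the naïve library the plus strand also had 6.23% at 53427401, 5.71% at 53427405, 6.57% at 53431781, 7.45% at 53431793, 8.40% at 53431881, 5.66% at 53432035, 5.09% at 53432059 and 9.0% at 53440582. The minus strand of the naïve library had 8.20% at 53431715, 5.90% at 53440630, 5.61% at 53440670 and 6.67% at 53440706. In the Th2 library the minus strand had 5.57% at 53427417, and the plus strand had 5.33% at 53431881, 9.76% at 53432035 and 5.92% at 53440759. Of the 16 cytosines at 5% or more in a TAPS library, 15 lay within 8 bases of a CpG of the same strand, the exception being 53440706 at 38 bases. Of all 815 cytosines outside CpGs, 288 (35.3%) lay as near, and the distance of 8 bases was chosen after the values were seen. What sets these values was not tested.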

How the results depend on the processing

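C reads multiplied by 0.5 in TAPS turned the sign of 4 differences from BS-seq, the naïve mean (-0.824 points, then 3.33), the naïve promoter (-13.0, then 2.91), and in Th2 cells the HSII region (-13.2, then 1.27) and exon 3 (-1.45, then 1.14). The number of CpG strands lower in Th2 cells was 75 as reported, 75 and 72 with 20 and 500 reads, 79 and 58 with a minimum of 5 and 20 points and 64 with C reads multiplied by 0.5, and the number higher was 2 with 5 points. Between strands of naïve cells, 5 points gave 12 CpGs with a higher minus strand and 8 with a higher plus strand, 20 in all. A minimum of 20 points gave 2 and 1, 3 in all, and C reads multiplied by 0.5 left 1 with a higher plus strand and 4 in all. In Th2 cells, 5 points gave 18 CpGs with a higher plus strand and 22 in all, and 20 points gave 1 in each direction, 2 in all. These follow from the minimum and the weighting themselves. With C reads multiplied by 0.5, naïve levels on the minus and plus strand were 96.2% and 91.4% in *CNS1*, 52.5% and 44.9% in the promoter, 98.4% and 98.6% in exon 1, 96.7% and 97.8% in intron 1 and exon 2, 95.6% and 95.1% in the HSII region, 95.7% and 99.5% in exon 3 and 92.8% and 91% over all CpGs. The Th2 levels were, in the same order, 67.6% and 69.5%, 34.0% and 38.3%, 74% and 78.5%, 73.8% and 77.7%, 74.3% and 74.6%, 97.1% and 98.9%, and 70.7% and 73.4%. The changes were -28.6 and -21.9 points, -18.5 and -6.57, -24.4 and -20.0, -22.9 and -20.0, -21.3 and -20.5, 1.37 and -0.644, and -22.0 and -17.5. With 500 reads, which leaves out CpGs 22 and 23, exon 1 was at 96.1% and 97.9% in naïve and 53.1% and 60.9% in Th2 cells (changes of -43 and -37.1 points), and all CpGs at 88.2% and 86.3%, and 57% and 60.2% (-31.2 and -26.1 points). With read-weighted means, levels in naïve and Th2 cells were 93.3% and 55.9% in *CNS1*, 37.7% and 21.7% in the promoter, 96.1% and 53.6% in exon 1, 93.4% and 54.8% in intron 1 and exon 2, and 87.2% and 56.2% over all CpGs on the minus strand. On the plus strand they were 56.8% in *CNS1* of Th2 cells, 30.7% and 25% in the promoter, 61.2% in exon 1 of Th2 cells, 96.3% and 67.8% in intron 1 and exon 2, 90.5% and 59.4% in the HSII region and 86.4% and 58.9% over all CpGs. The changes that moved with weighting were -37.3 and -29.3 points in *CNS1*, -42.6 and -36.7 in exon 1, -38.6 and -28.5 in intron 1 and exon 2, and -31 and -27.5 over all CpGs. Subtracting the T share outside CpGs gave naïve levels of 92.6% and 85.7% in *CNS1*, 93.7% and 95.6% in intron 1 and exon 2, 91.8% and 90.5% in the HSII region, 98.7% in exon 3 (plus strand) and 88.5% and 86.4% over all CpGs, and Th2 levels on the plus strand of 97.6% in exon 3 and 60.9% over all CpGs. Beside BS-seq, C reads multiplied by 0.5 in TAPS gave -6.12 points in Th2 cells, with 24 CpGs below and 5 above the libraries, and 6 below and 35 above in naïve cells. By region it gave -11.3 points in *CNS1*, -4.17 in the promoter, -1.72 in exon 1 and -8.16 in intron 1 and exon 2 in Th2 cells, and 3.51 in *CNS1*, 5.23 in exon 1, 2.82 in intron 1 and exon 2, 4.95 in the HSII region and -0.160 in exon 3 in naïve cells. Leaving out each BS-seq library gave -21.4 to -15.4 points in Th2 and -1.04 to -0.611 points in naïve cells, where the differences of *CNS1* (-0.188 to 0.304 points) and of intron 1 and exon 2 (-0.357 to 0.492 points) changed sign. The HSII region of Th2 cells then ran from -17.6 to -8.50 points. The 8 wild-type BS-seq samples of first-cycle Th2 cells, 5 of them deletion controls, gave -13.6 points, as did averaging runs of 1 library, an alternative chosen after seeing the data, and these settings gave -17.5 points in *CNS1*. No paired analysis was possible because there was 1 TAPS library of each cell type, so that no test over replicates was run. Depth limits CpGs 22 and 23.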
